A study of Homo sapiens with 6 samples.

Results

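MYBL2, E2F1 and RB1 encode 3 regulators of the cell division cycle, and their transcripts were compared between field-exposed and unexposed cultures of the human glioblastoma line U-87 MG. All probe sets carrying these symbols in the platform annotation were taken, which gave 1 probe set for each gene, or 3 of 53617 probe sets and 3 of the 14884 named genes. The genes were chosen by their known roles and on measured values of this same comparison, so their own differences between the groups are given as a description and not as a test. Total RNA was hybridised to 1-colour Affymetrix arrays, 3 from exposed and 3 from unexposed cells, each numbered as a biological replicate in its title.

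Both groups were U-87 MG cells seeded in the same serum-containing medium and moved 24 h later to a culture box at the same temperature and gas mixture, where they stayed for 54 h. The exposed dishes stood inside a Faraday chamber and received RGFIELDS, electromagnetic fields that the labels describe as targeted to 4 molecules: hsa-miRNA-381, the mutated alpha-kinase 2 gene, HSP70 and CHI3L1. The unexposed dishes stood in a control box outside the chamber, so the field and the place of the box cannot be told apart. Titles and source names set the groups, whereas the description of the exposed samples also uses the word control.

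All values are log2 expression values from RMA, the authors' summary of each probe set, on which a difference of 1 is a 2-fold difference. Array medians lay between 3.96 and 3.99. Of the glioma markers looked up, VIM (10.5), CD44 (8.99) and CHI3L1 (8.74) were far above the medians in unexposed cells and NES was at 6.87. GFAP (4.86) and OLIG2 (4.71) were little above the medians, and S100B (3.68) and SOX2 (3.57) were below them. CDKN2A and MTAP, which lie in a region that is deleted in this line, were at 3.46 and 3.83. Of 7 measured markers of other cell types, KRT18 was at 7.26 and the other 6 were between 2.97 and 5.34, and 0 of the 7 passed the test described next. All 7 had positive changes (5 without unexposed replicate 2 or 3 or exposed replicate 3, and 6 without exposed replicate 2), as had 7543 of the 14884 genes, with a median of 0.14. Their mean level was 4.33 to 4.51 in unexposed and 4.57 to 4.60 in exposed arrays, without overlap, and its part in the differences given later was not tested. Unexposed replicate 2 lay farthest out on the first principal component over all probe sets, at -47.2 against -22.2 and -15.3 for the other unexposed arrays and 19.1 to 39.3 for the exposed ones.

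The retinoblastoma protein RB1 is a pocket protein: it binds E2F transcription factors and holds their target genes silent until cyclin-dependent kinases phosphorylate it in G1. Free E2F1, with a DP partner, then activates genes of DNA replication. MYBL2, itself a classical E2F target, joins the MuvB complex and with FOXM1 activates the genes of G2 and mitosis, while in resting cells MuvB instead joins the pocket proteins RBL1 or RBL2 with a repressive E2F to form DREAM. In glioblastoma this RB pathway is commonly disabled, and transcripts of its targets serve as readings of proliferation.

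MYBL2 and E2F1 are themselves known targets of E2F factors, and the stretches before their starts are shown because they are the promoters of the pair that was lower together. RefSeq's table of 300-base windows for GRCh38.p14, from 250 bases before a gene's first base to 50 bases after, gave the MYBL2 window at chr20:43666864-43667163 on the plus strand and the E2F1 window at chr20:33686336-33686635 on the minus strand. Both are printed along the gene's strand, and capitals mark matches on either strand to an E2F motif (TTTCCCGC, TTTCGCGC, TTTGCCGC or TTTGGCGC) or to the shorter form GGCGGGA.
MYBL2: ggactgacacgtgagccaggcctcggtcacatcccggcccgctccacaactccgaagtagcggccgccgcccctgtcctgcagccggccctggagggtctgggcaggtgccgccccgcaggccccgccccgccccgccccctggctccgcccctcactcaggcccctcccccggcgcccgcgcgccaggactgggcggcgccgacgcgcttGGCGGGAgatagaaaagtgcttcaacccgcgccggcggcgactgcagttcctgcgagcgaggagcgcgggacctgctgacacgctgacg
E2F1: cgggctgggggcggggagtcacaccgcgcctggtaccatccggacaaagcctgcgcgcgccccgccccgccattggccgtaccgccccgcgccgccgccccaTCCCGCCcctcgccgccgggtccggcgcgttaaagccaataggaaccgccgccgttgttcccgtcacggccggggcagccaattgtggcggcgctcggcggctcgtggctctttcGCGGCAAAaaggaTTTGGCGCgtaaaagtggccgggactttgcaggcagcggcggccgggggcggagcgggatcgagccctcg
The E2F1 window held 2 matches to the longer motif. One began 33 bases before the first base of the gene, where TTTGCCGC reads on the opposite strand, and the other began 20 bases before it as TTTGGCGC. It held 1 match to the short form, beginning 148 bases before the start. The MYBL2 window held no match to the longer motif and 1 to the short form, beginning 39 bases before the start; the short form was added after this window had been read. The longer motif stood in 3.31% and the short form in 15.4% of all 35116 windows. G and C made up 75.3% of the MYBL2 window and 73.3% of the E2F1 window, and the shares were not adjusted for base composition. A match is a description of the letters and not of binding. The table's window for RB1 does not lie at the start of RB1 in the gene table of the same assembly, so it is not shown.

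MYBL2 (probe set 16913957), the transcription factor of late cell cycle genes, was about 2-fold lower in exposed cells. Its values were 8.66, 9.15 and 8.72 in unexposed replicates 1, 2 and 3 and 7.79, 7.68 and 7.996 in exposed replicates 1, 2 and 3. The lowest unexposed array stood above the highest exposed one, so the groups did not overlap, and unexposed replicate 2 was the highest of the 6. Means were 8.85 ± 0.27 and 7.82 ± 0.16 (SD, n = 3 each), so that exposed cells were 2.04-fold lower, with a difference of -1.03 on the log2 scale (SE 0.14). Ordered from the lowest change upward, it was number 6 among the 14884 genes. Leaving out single arrays gave changes from -1.12 to -0.87, the smallest being that without unexposed replicate 2.

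E2F1 (probe set 16918445), which drives entry into S phase, was lower by a smaller amount. It stood at 9.14, 9.19 and 9.12 in the unexposed and at 8.84, 8.70 and 8.77 in the exposed arrays. The groups again did not overlap, and the spread inside each was narrow, with means of 9.15 ± 0.04 and 8.77 ± 0.07 (SD, n = 3 each). The log2 change was -0.38 (SE 0.06), or 1.30-fold lower, and it lay between -0.42 and -0.35 with single arrays left out.

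RB1 (probe set 16774690), the pocket protein that restrains E2F1, stood the other way round. Its values were 8.69, 8.65 and 8.73 in unexposed and 8.93, 8.95 and 8.90 in exposed arrays. All 3 exposed arrays were above all 3 unexposed ones, although the distance was small. Means were 8.69 ± 0.04 and 8.93 ± 0.03 (SD, n = 3 each), with a log2 change of 0.24 (SE 0.06), or 1.18-fold, and 0.22 to 0.26 with single arrays left out.

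In limma with Benjamini-Hochberg adjustment over all 14884 genes, at an adjusted p of 0.05, MYBL2 and E2F1 were among the 1.67% of genes called lower and RB1 was not among the 1.40% called higher. Of all genes, 13.8% had every exposed array below every unexposed one, as MYBL2 and E2F1 did, and 13.2% had the reverse, as RB1 did. Because the comparison chose these genes, nothing is read from their share. The calls depended on the arrays: MYBL2 kept its call in 2 of the 6 settings that left out an array (without unexposed replicate 1 or exposed replicate 3) and E2F1 in 0 of 6, where the adjusted p of E2F1 ran from 0.0505 to 0.120. Over all genes the number called was 0 without unexposed replicate 2 or 3 or exposed replicate 1 or 2, so the calls given in the following paragraphs for other genes end there as well. In bulk RNA a smaller number of dividing cells and less transcript in each cell cannot be told apart.

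**Figure D1:**
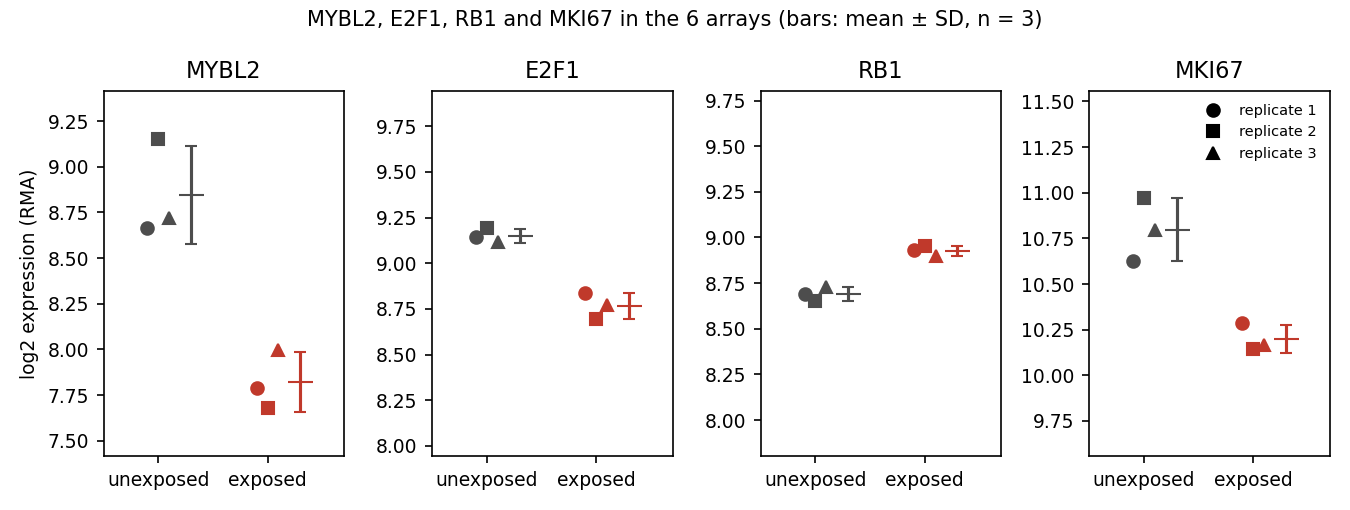
Log2 expression of MYBL2, E2F1, RB1 and MKI67 on each array, with unexposed arrays in grey and exposed arrays in red, symbols for replicate numbers, and the mean ± SD of 3 arrays beside the points; every panel spans 2 log2 units. Exposed arrays lay below unexposed ones for MYBL2 (means 7.82 and 8.85), E2F1 (8.77 and 9.15) and MKI67 (10.2 and 10.8), and above them for RB1 (8.93 and 8.69).

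Among the relatives of these genes, the E2F and pocket protein families held the members that fell. Of 7 measured E2F and DP genes, all 7 had negative values, as had 7341 of the 14884 genes, and 3 were called lower, against 1.67% of all genes: E2F1 and, beside it, E2F2 and E2F7. Both counts include E2F1, which this comparison chose, so its part in them was fixed beforehand and nothing is read from it. The sign of all 7 held under every alternative scaling, while E2F3 was at 0.08 without unexposed replicate 2. E2F2, an activator like E2F1, stood at 6.94, 6.92 and 6.88 in unexposed and at 6.48, 6.44 and 6.27 in exposed arrays. Its change was -0.52 (SE 0.08, limma adjusted p = 0.0312), and the groups did not overlap. E2F7, which represses E2F targets, stood at 9.18, 9.15 and 9.16 in unexposed and at 8.55, 8.65 and 8.69 in exposed arrays. Its change was -0.53 (SE 0.06, limma adjusted p = 0.0260), again without overlap. An activating and a repressing E2F thus stood on the same side. Leaving out single arrays gave -0.56 to -0.46 for E2F2, which kept its call without exposed replicate 3 alone and lost it with arrays centred on ribosomal protein genes (-0.44, limma adjusted p = 0.0699), and -0.56 to -0.49 for E2F7, which kept it without exposed replicate 3 or unexposed replicate 1. E2F8, the partner of E2F7, had a change of -0.33 (SE 0.11, limma adjusted p = 0.133) and did not pass. E2F3 (-0.12), TFDP1 (-0.15) and TFDP2 (-0.21), the last pair being DP partners of E2F proteins, did not pass either. E2F4, E2F5, E2F6 and TFDP3 were not among the named probe sets.

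The 3 pocket protein genes stood apart from one another. RBL1, encoding p107 and itself known as an E2F target, was at 8.84, 8.91 and 8.86 in unexposed and at 8.40, 8.32 and 8.56 in exposed arrays. It fell by 0.44 on the log2 scale (SE 0.07, limma adjusted p = 0.0324) with no overlap between the groups, and its call held without exposed replicate 3 alone (-0.51 to -0.39 over the arrays left out). RBL2, encoding p130 of resting cells, was at 7.51 ± 0.01 in unexposed and 7.52 ± 0.05 in exposed cells (SD, n = 3 each). The 95% interval of its change ran from -0.14 to 0.16. RB1 was the pocket protein gene with all exposed values on the higher side.

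In the MYB family, MYBL1 had a change of -0.12 (SE 0.07) and MYB one of 0.13 (SE 0.17), and neither passed (limma adjusted p = 0.439 and 0.761). MYB was dim, at 2.66 in unexposed and 2.79 in exposed cells, below the array medians, and its sign turned without exposed replicate 1 (-0.02). Of the 7 genes of the MuvB core, its kinase DYRK1A and its partner FOXM1, 0 passed in limma. An unadjusted limma p under 0.05 was found for 3 of them, as for 2815 of the 14884 genes. LIN54, the DNA-binding subunit of MuvB, had a change of -0.36 (SE 0.09, limma adjusted p = 0.0686), and its groups did not overlap. FOXM1, the forkhead factor that joins MYBL2 and MuvB in G2, was at 10.1, 10.1 and 10.1 in unexposed and at 10.1, 9.92 and 10.1 in exposed arrays, a change of -0.06 (95% interval -0.20 to 0.08). Centring the arrays on ribosomal protein genes brought it to 0.02. The histone-binding RBBP4 (-0.20), LIN52 (-0.17), DYRK1A (-0.15), LIN9 (-0.14) and LIN37 (0.11) did not pass.

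**Figure D2:**
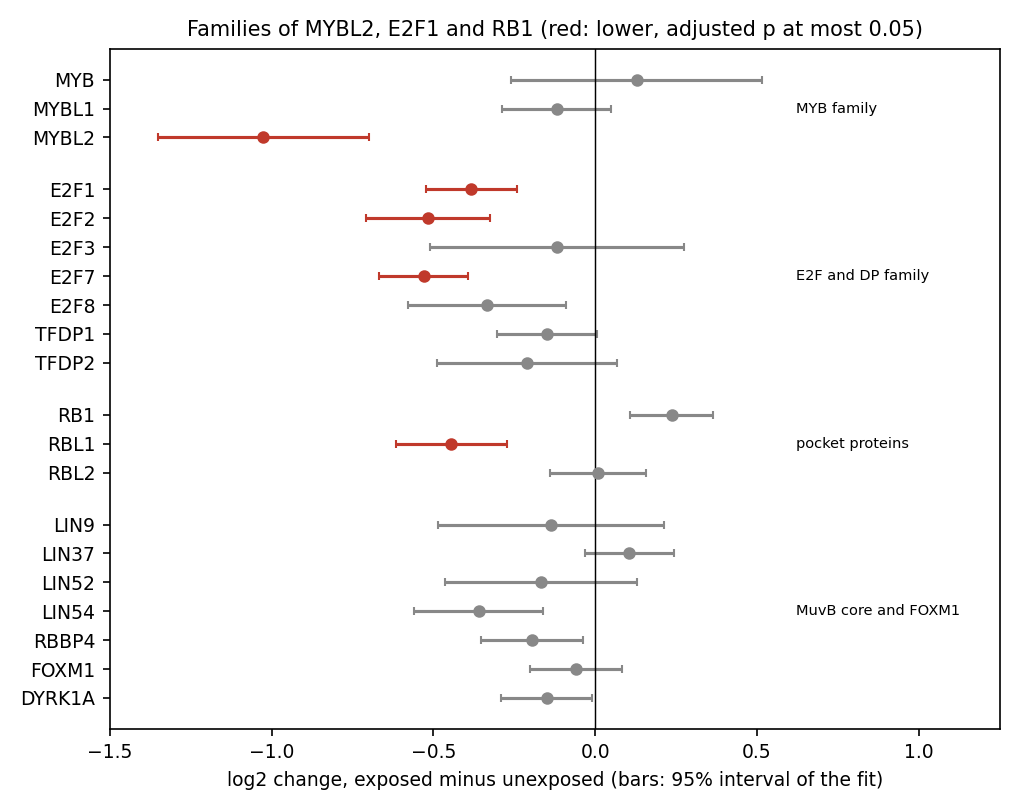
Log2 change from unexposed to exposed cells for the measured members of the MYB, E2F and DP, pocket protein and MuvB groups, with the 95% interval of the limma fit; red marks genes lower at an adjusted p of at most 0.05. MYBL2 lay farthest left at -1.03, E2F1, E2F2, E2F7 and RBL1 lay between -0.53 and -0.38, and RB1 lay to the right of 0 at 0.24.

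Of 14 measured genes upstream of RB1, which phosphorylate it, inhibit those kinases or act beside them, 4 fell, 0 rose and 10 did not pass, against 1.67% called lower and 1.40% called higher among all genes. The median change was -0.20 against 0.0029 over all genes. The 4 that fell encode cyclins, and 3 other cyclin genes of the list did not pass. CCND1, the D-type cyclin that starts the phosphorylation of RB1, fell by 0.30 (SE 0.05) and CCNF, a cyclin that also binds MYBL2, by 0.50 (SE 0.08), both with limma adjusted p = 0.0312. CCNE2, an E-type cyclin, fell by 0.76 and CCNA2, the S and G2 cyclin, by 0.51, both named after their values were seen. The catalytic partner CDK4 was at 0.01, with -0.04 without exposed replicate 3, and CCND2, a D-type cyclin, at 0.04, with -0.09 without exposed replicate 2. CCND3, also of the D type, was at -0.07 (limma adjusted p = 0.797) and CCNE1, of the E type, at -0.04 (limma adjusted p = 0.825); this pair was picked with the values known. Centring on ribosomal protein genes turned them to 0.01 and 0.04, and it ended the call of CCND1 (-0.22, limma adjusted p = 0.102). CDKN2A, the gene of the CDK4 inhibitor p16, was dim, as given above, with a change of -0.14 that did not pass. CDKN1A, CDKN1B, CDKN1C, CDKN2B, CDKN2C, CDKN2D and SKP2 of this list were not among the named probe sets. CDKN2A was thus the only kinase inhibitor gene of the list that was measured. Without unexposed replicate 1 the limma adjusted p of these 4 cyclins lay between 0.0523 and 0.0623, and without exposed replicate 3 CCNF kept its call (limma adjusted p = 0.0428) while those of the others lay between 0.0549 and 0.0643.

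Of 12 measured chromatin partners of RB1, 3 fell, 0 rose and 9 did not pass, against 1.67% called lower and 1.40% called higher among all genes, with a median of -0.13 against 0.0029. EZH2, the histone H3 methyltransferase of the Polycomb complex and an E2F target, fell by 0.77 (SE 0.13, limma adjusted p = 0.0324), standing at 8.25, 8.48 and 8.33 in unexposed and at 7.63, 7.30 and 7.80 in exposed arrays. The histone deacetylase HDAC3 fell by 0.45 (SE 0.08, limma adjusted p = 0.0336), and the maintenance DNA methyltransferase DNMT1, named after its values were seen, by 0.26, a call lost with arrays centred on ribosomal protein genes (-0.18, limma adjusted p = 0.142). The corepressor SIN3B was at 0.28 (limma adjusted p = 0.249) and ARID4B at 0.06, and neither passed.

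Some of the genes that E2F1 and MYBL2 are known to activate fell, and more did not pass. In a list of G1/S genes classed as E2F targets, 9 of 34 measured members fell, 0 rose and 25 did not pass, against 1.67% called lower and 1.40% called higher among all genes, with a median change of -0.33 against 0.0029 over all genes. All 34 had negative values, which became 32 with quantile normalization again, 31 with arrays centred on ribosomal protein genes and 33 without unexposed replicate 2 or exposed replicate 2. In 27 of the 34 every exposed array was below every unexposed one, as in 13.8% of all genes. UNG, the uracil-DNA glycosylase gene, named after its values were seen, was at -0.02 (95% interval -0.17 to 0.12). CDC45, a part of the replicative helicase, was at 7.52, 7.64 and 7.60 in unexposed and at 7.03, 6.95 and 7.21 in exposed arrays, a change of -0.52 (SE 0.09, limma adjusted p = 0.0320). EZH2 and DNMT1 of the chromatin list are in this list too, as are CCNE1, CCNE2 and CDC25A of the upstream list. The counts of these lists are thus not separate.

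In a list of G2/M genes classed as targets of MuvB with MYBL2 and FOXM1, 16 of 40 measured members fell, 0 rose and 24 did not pass, with a median of -0.44. Among all genes 1.67% were called lower and 1.40% higher, and the median was 0.0029. All 40 had negative values, and 38 did with arrays centred on ribosomal protein genes and 39 with quantile normalization again and without unexposed replicate 3 or exposed replicate 2. Every exposed array was below every unexposed one in 34 of the 40, as in 13.8% of all genes. The chromosome-bound kinesin KIF4A fell by 0.60 (SE 0.09) and MKI67, the gene of the proliferation antigen Ki-67, by 0.60 (SE 0.09), both with limma adjusted p = 0.0298. The members were not uniform: HMMR, a spindle-associated protein named after its values were seen, differed by -0.01 (95% interval -0.21 to 0.19). CCNA2 of the upstream list and FOXM1 of the MuvB group are counted here as well. MKI67 is counted too, and its relation to MYBL2, E2F1 and RB1 was part of what chose those genes. Nothing is read from its part in these counts. Without exposed replicate 3, 5 members of the G1/S list and 13 of the G2/M list fell, without unexposed replicate 1 it was 0 and 1, and without any other single array 0 and 0.

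By array, the list means kept the order seen for MYBL2 at both ends. The G2/M list mean was 8.65, 8.83 and 8.72 in unexposed and 8.38, 8.17 and 8.43 in exposed replicates 1, 2 and 3. The G1/S list mean was 8.15, 8.32 and 8.19 in unexposed and 7.92, 7.77 and 7.97 in exposed replicates 1, 2 and 3. Unexposed replicate 2 was the highest array and exposed replicate 2 the lowest in both lists, and the same arrays were the highest and the lowest for MYBL2, E2F1 and MKI67. For RB1 these arrays were the lowest and the highest. Unexposed replicate 2 also lay farthest out on the first principal component, and exposed replicate 2 farthest on the other side, and the part of that component in these differences was not tested.

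**Figure D3:**
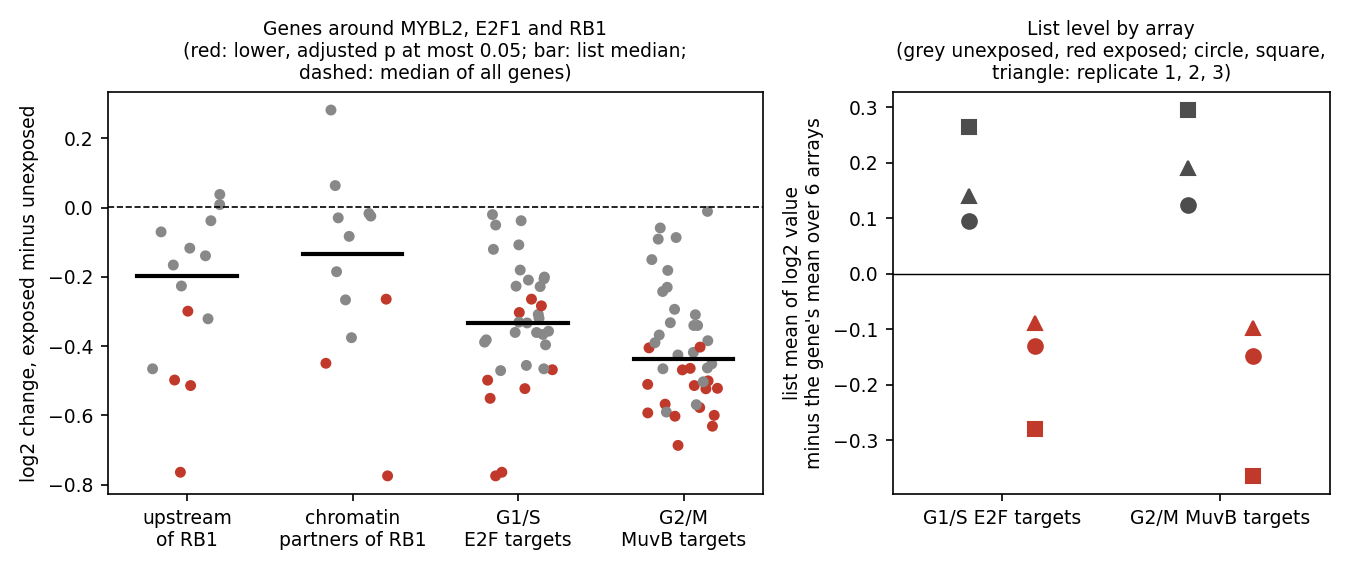
Left, log2 change of each measured gene in 4 lists around MYBL2, E2F1 and RB1, with red for genes lower at an adjusted p of at most 0.05, a bar for the list median (-0.20, -0.13, -0.33 and -0.44) and a dashed line for the median of all genes. Right, the mean over each target list of the log2 value minus the gene's mean over 6 arrays, by array; all unexposed arrays (grey) lay above 0 and all exposed arrays (red) below it, with replicate 2 (squares) at both ends.

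Over the 6 arrays MYBL2 and E2F1 ran with MKI67 and RB1 ran against it. MKI67 (probe set 16719515) stood at 10.6, 11.0 and 10.8 in unexposed and at 10.3, 10.1 and 10.2 in exposed arrays. Pearson's r with MKI67 over the 6 arrays was 0.967 for MYBL2, 0.962 for E2F1 and -0.943 for RB1, and Spearman's rho was 0.943, 0.943 and -0.886. These are descriptions without a p, since the arrays fall into 2 groups that differ in all 4 genes and the relation was part of what chose the genes. With each group's mean subtracted, which leaves the spread among replicates, r was 0.714 for MYBL2, 0.603 for E2F1 and -0.373 for RB1. These within-group values rest on 3 arrays in each group and cannot be tested here. Without unexposed replicates 2 and 3, the arrays farthest from the MKI67 median, r was 0.913, 0.992 and -0.941. That left unexposed replicate 1 alone beside the exposed arrays. These values therefore follow mostly the difference between the groups, and nothing is read from them.

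Among themselves, MYBL2 and E2F1 had r = 0.959 over the 6 arrays and 0.544 within groups. RB1 had r = -0.984 with MYBL2 and -0.978 with E2F1, and -0.858 and -0.595 within groups. Of the 40 G2/M genes, 38 had a positive within-group r with MYBL2 (median 0.756) and 0 had one with RB1 (median -0.613), while over 10711 genes above the median level the median within-group r was 0.102 with MYBL2 and -0.0672 with RB1. For E2F1, 32 of the 34 G1/S genes had a positive within-group r, with a median of 0.626 against 0.0984 over those genes. With the lists crossed, MYBL2 with the G1/S list had a median of 0.747 (32 of 34 positive) and E2F1 with the G2/M list one of 0.6995 (38 of 40), so the values do not tie either gene to 1 list. Genes measured on the same 6 arrays are not independent of one another, so these counts carry no test. MKI67 is among the G2/M genes, and its relation with MYBL2, E2F1 and RB1 was part of what chose them.

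**Figure D4:**
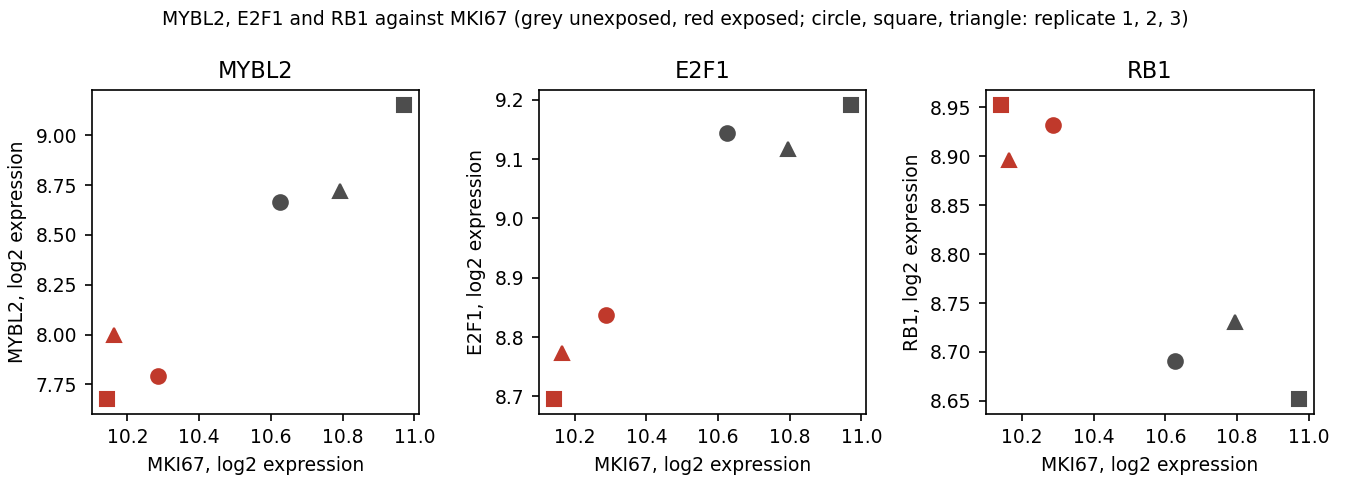
Log2 expression of MYBL2, E2F1 and RB1 against that of MKI67 on the 6 arrays, with unexposed arrays in grey, exposed arrays in red and symbols for replicate numbers. The 2 groups form separate clusters in each panel, and MYBL2 (r = 0.967) and E2F1 (r = 0.962) were high where MKI67 was high while RB1 (r = -0.943) was low there.

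The genes most like each in Pearson's r over the 6 arrays were taken from the 10711 other genes above the median level. For MYBL2 they were the kinetochore scaffold KNL1, the centromere protein gene CENPU, the matrix protein gene ECM1, DCAF16 and the clock repressor PER2, with r from 0.998 to 0.999. For E2F1 they were GCAT, an enzyme of threonine breakdown, the cortical actin regulator CTTN, KIAA1191, UHRF1, which guides DNMT1 to replicated DNA, and the splicing factor PRPF8, with r from 0.994 to 0.998. For RB1 they were STRADA, a pseudokinase that activates LKB1, the ephrin receptor EPHB4, the noncoding LINC01134, the deubiquitinase USP48 and TRMT1L, with r from 0.995 to 0.996. With 6 arrays in 2 clusters a matching difference between the groups raises r, but the listed genes did not match in that alone. With group means subtracted, r ran from 0.984 to 0.996 for the MYBL2 genes. It ran from 0.92 to 0.97 for the E2F1 genes and from 0.93 to 0.96 for the RB1 genes. The genes were picked for the highest r among 10711, so these values carry no test. In r over the 6 arrays 2.16% of the candidate genes exceeded MKI67 for MYBL2 and 1.76% for E2F1, and in r within groups 15.9% and 18.3% did. For RB1, whose r with MKI67 was negative, 96.5% exceeded MKI67 over the 6 arrays and 68.2% within groups. The relation with MKI67 was part of what chose the genes, so these shares support nothing.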

How the data were processed

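The authors deposited log2 values of every probe set on 6 arrays, made with RMA in Affymetrix Expression Console 3.0 and Transcriptome Analysis Console 3.0, per the submitters' processing notes; no other setting is known here. RMA makes array distributions alike, so a change in total RNA per cell is not visible. There are no detection calls, and precision is set by the 6 arrays. Of 53617 probe sets, 16098 carried 1 gene symbol in the platform annotation, 0 several and 37519 none; symbols were updated by gene ID through the RefSeq gene table of GRCh38.p14. Each of 14884 genes was represented by its brightest probe set.

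Exposed minus unexposed differences were fitted on all probe sets by limma 3.58.1 under R 4.3.3 (lmFit and trended eBayes; two-sided tests, no covariate, no filter), with Benjamini-Hochberg adjustment of p over the 14884 genes and a threshold of 0.05. The procedure was tested on simulated data, where 79.2% of genes changed by 1 log2 unit and 35.4% of those changed by 0.5 were called. A gene that did not pass is therefore not shown to be unchanged. The genes, the lists and the rule for names were chosen with earlier results of these data known. The rule names every measured member of the MYB, E2F and DP, pocket protein and MuvB groups, in every other list the 2 lowest p-values of either sign, and the 5 genes most like each gene. List members were sought by current symbol. Sequences come from RefSeq's promoter table, GRCh38.p14. Alternatives were the replicate number as a block, normalization, centring, a filter on dim probe sets, the variance model, the gene's probe set and single arrays left out. Figures were drawn with matplotlib 3.10.9.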

Additional observations from a re-analysis of the deposited data

How the results depend on the processing

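The changes of MYBL2, E2F1 and RB1 kept their sign under every alternative run. With arrays centred on ribosomal protein genes E2F1 was at -0.30 (limma adjusted p = 0.0515) and RB1 at 0.32. Of the other genes followed through the settings, E2F2, CCND1 and DNMT1 lost their calls there. UHRF1 and other genes named for likeness alone were not followed. The G1/S list count was 6 there against 9 in the main fit, and the G2/M count 17 against 16. With single arrays left out the changes of MYBL2, E2F1 and RB1 ran from -1.12 to -0.87, from -0.42 to -0.35 and from 0.22 to 0.26. The number of genes called, 456 with all arrays, was 753 when only probe sets brighter than the median were kept, where RB1 passed (limma adjusted p = 0.0406). With probe sets averaged per gene it was 1173, and 21 and 27 genes of the G1/S and G2/M lists fell. Fitting the representative probe sets by themselves gave 1209, with 21 and 27 again. RB1 passed there too (limma adjusted p = 0.0246 and 0.0248). The limma counts were 0, 0 and 0 without a mean-variance trend (2220, 23 and 29 at an unadjusted p under 0.05) and 4, 0 and 0 without variance moderation (2649, 22 and 27). With single arrays left out they ran from 0 to 325, from 0 to 5 and from 0 to 13. With the replicate number as a block they were 0, 0 and 0 (2286, 24 and 30 at an unadjusted p under 0.05), and the limma adjusted p of MYBL2 was 0.127 and of E2F1 0.134. Over all probe sets, arrays of the same number did not deviate together (correlations of -0.0164, -0.0253 and 0.00964). These correlations include the many dim probe sets, and the labels give replicate numbers alone. Whether the cultures were handled in pairs is therefore not known. The correlation with MKI67 was 0.714, 0.603 and -0.373 with group means subtracted, and ran from 0.941 to 0.986, from 0.954 to 0.992 and from -0.977 to -0.917 with single arrays left out. Small changes near 0 (RBL2, FOXM1, CDK4) have no settled sign here.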

Other observations

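The promoter windows of the target lists, which do not depend on the arrays, differed in the letters they held. The longer E2F motif stood in 19 of 29 windows of G1/S genes (65.5%), in 3 of 35 of G2/M genes (8.57%) and in 3.31% of all 35116 windows. The cell cycle homology region motif CHR, searched as TTTGAA or TTCGAA, which the MuvB subunit LIN54 binds, stood in 25 of 35 G2/M windows (71.4%), in 2 of 29 G1/S windows (6.90%) and in 16.4% of all. The MKI67 window held TTTGAA at 2 places, beginning 47 and 29 bases before the first base of the gene, while the MYBL2 and E2F1 windows held neither CHR form. The motif CCAAT, bound by NF-Y, stood in 29 of 35 G2/M windows (82.9%), in 19 of 29 G1/S windows (65.5%) and in 34.6% of all, and at 3 places in the E2F1 window. The MYB motif, AACGG or AACTG, stood in 24 of 35 G2/M windows (68.6%), in 13 of 29 G1/S windows (44.8%) and in 52.4% of all. All motifs were searched on both strands, without adjustment for base composition, and 24900 of the 35116 windows lie at the start of their gene in the gene table. Each list gene with a window gave a single window, the first for its symbol, at the gene start or not. The shares of all windows count every window, so the 2 kinds of share are built differently. The lists hold genes known as targets partly through such motifs, so the shares describe the lists and are no independent evidence.

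RB1-DT, the noncoding RNA read divergently from the RB1 start, was dim, at 3.50 ± 0.14 in unexposed and 3.37 ± 0.24 in exposed cells (SD, n = 3 each). The groups overlapped, with a difference of -0.13 (95% interval -0.52 to 0.25; limma adjusted p = 0.748). This gene was looked up after the values were seen.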
